A study of Mus musculus with 2 samples.

Results

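The 5 genes described here are 4 chemokines that attract neutrophils (Cxcl1, Cxcl2, Cxcl3 and Cxcl5) and their receptor Cxcr2, out of 31053 genes counted in single cells of mouse melanomas. They were chosen by their UMI levels and genotype ratios in these libraries, above all the ratio of Cxcl5 in fibroblasts, as members of the family of CXC chemokines with the ELR motif. The ratios below therefore describe them and test nothing. The tumours were small B16F10 melanomas, grown from a mouse melanoma cell line injected into Atf4 WT/WT or Atf4 Δ/Δ hosts. All hosts carried a tamoxifen-inducible Cre at the Rosa26 locus and were given tamoxifen. In the Atf4 Δ/Δ hosts this removed floxed Atf4 in host cells throughout the body, while the injected melanoma cells kept their own Atf4 in both groups. There was 1 library per genotype, each made from 2 pooled tumours, and per the labels both pools held males and females aged 11 weeks. No difference between the genotypes therefore has a replicate check, and every interval covers counting error at 95% only.

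ELR chemokines are small secreted proteins that bind CXCR2 on neutrophils and draw these cells out of the blood into tissue. Fibroblasts, endothelial cells and macrophages make them within hours of sensing interleukin-1, tumour necrosis factor or microbial products, largely through the transcription factor NF-kB, and their short-lived mRNAs are then degraded by proteins such as ZFP36 and the RNase encoded by Zc3h12a. In tumours such chemokines can bring in myeloid cells, and CXCR2 on endothelial cells can take part in vessel growth.

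All 5 genes had the same identifier in the files and in the GENCODE vM21 annotation of the same build, GRCm38. Cxcl5 (ENSMUSG00000029371, chr5:90759360-90761624), Cxcl3 (ENSMUSG00000029379, chr5:90786103-90789600), Cxcl1 (ENSMUSG00000029380, chr5:90891241-90893115) and Cxcl2 (ENSMUSG00000058427, chr5:90903871-90905938) are protein-coding genes on the plus strand of chromosome 5. They lie within 146.579 kb, together with Ppbp, Pf4 and Cxcl15, which encode further CXC chemokines. Cxcr2 (ENSMUSG00000026180, chr1:74153989-74161246, plus strand) is on chromosome 1. RefSeq promoter windows, of 300 bases from 250 before the start, were at hand for 4 of the 5 genes, Cxcl1, Cxcl2, Cxcl3 and Cxcr2. The stretch from 105 to 29 bases before the RefSeq start of the 3 chemokine genes is printed because all 3 hold the same 10 letters of the NF-kB consensus, GGGAATTTCC, in capitals (GRCm38.p6, plus strand, chr5:90891140-90891216, chr5:90903794-90903870 and chr5:90785996-90786072, in this order).

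Cxcl1: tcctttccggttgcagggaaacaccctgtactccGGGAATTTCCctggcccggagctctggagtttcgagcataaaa

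Cxcl2: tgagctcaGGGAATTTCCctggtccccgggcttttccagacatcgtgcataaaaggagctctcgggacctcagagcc

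Cxcl3: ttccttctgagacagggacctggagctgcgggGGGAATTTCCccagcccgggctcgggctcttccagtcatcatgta

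The 10 letters began 71 bases before the RefSeq start in Cxcl1, 97 before it in Cxcl2 and 73 before it in Cxcl3. In Cxcl2 the printed stretch ends right before the GENCODE gene start, so the RefSeq start lies downstream of that one. The RefSeq and GENCODE starts are closer together in Cxcl1 and Cxcl3, so the larger distance in Cxcl2 depends on the annotation. Searched on both strands, they were present in 29 of 32851 promoter windows of all genes, or 0.0883%, but they were picked for being shared, and the looser NF-kB consensus they match was in 4.5% of windows. On the minus strand a second match to that consensus overlaps each of them. A TATA-like ATAAAAG followed at 37 bases in Cxcl1, 40 in Cxcl2 and 44 in Cxcl3, counted between first letters, and is in 5.42% of all windows. The letters TGATGNAA, to which ATF4 binds as a dimer with C/EBP proteins, were in 3.97% of all windows and in none of the 4 windows of these genes. A match in letters is a description and not a measured binding site.

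Levels are given as CPM, the counts of unique molecular identifiers (UMIs) of a gene in all cells of a class, scaled to the same total of 1000000 UMIs in each library. The UMIs tag 3' ends, so the CPM of a gene does not grow with its length. Each cell was put in a class by its detected marker genes, and none of the 5 genes was a marker. The WT/WT and Δ/Δ libraries gave 200 and 238 fibroblasts, 1520 and 1076 myeloid cells, 79 and 28 endothelial cells and 1896 and 2070 melanoma cells. The medians per fibroblast were 3729.5 and 3724.5 UMIs, and those per myeloid cell were 1751.5 and 1709. Over all 3861 WT/WT and 3557 Δ/Δ cells kept, Cxcl1 had 2562 and 2080 UMIs, Cxcl2 11030 and 6996, Cxcl3 102 and 121, Cxcl5 47 and 798, and Cxcr2 3 and 5. Of the 6304 WT/WT and 5474 Δ/Δ barcodes, with 38417113 and 38290024 UMIs, 10 were shared by the libraries, 1 of them among kept cells. As a check of the labels, Atf4 was at 254 CPM in WT/WT and 47.1 CPM in Δ/Δ fibroblasts, and at 193 and 43.8 CPM in myeloid cells. Y-linked transcripts were absent from all WT/WT fibroblasts and myeloid cells, although the labels give both sexes for that pool. Host sex and genotype therefore cannot be told apart over whole classes, and values within cells of like sex-linked transcripts are given beside the main ones of the members. Ratios of other genes were not split in this way. By subtype or state, only Cxcl5 in fibroblasts was.

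**Figure D1:**
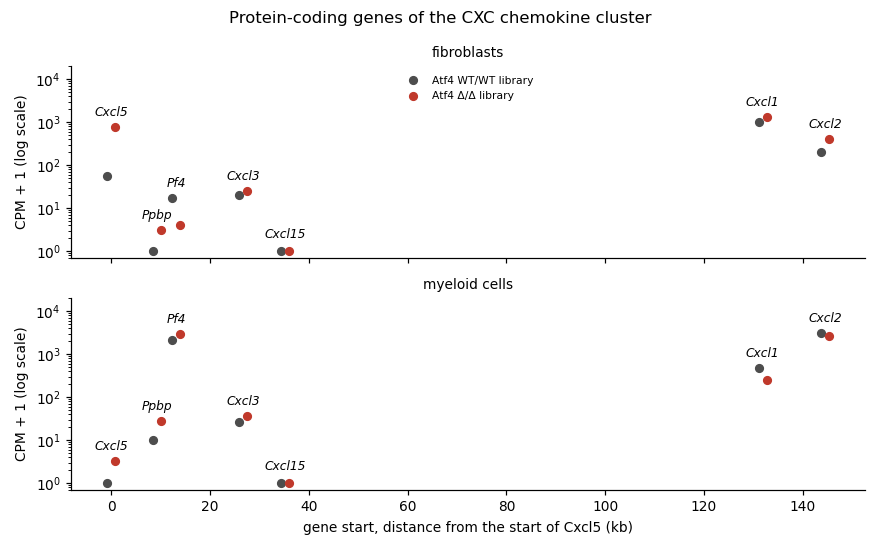
CPM + 1 (log axis) of the 7 protein-coding genes from Cxcl5 to Cxcl2, against the distance of the gene start from that of Cxcl5 in kb, in fibroblasts (top) and myeloid cells (bottom), with grey for the WT/WT and red for the Δ/Δ library, drawn slightly to either side of the true position. Genes at 0 UMIs sit at 1, and Cxcl5 is the fibroblast gene with the widest gap between the libraries, while Cxcl2 and Pf4 are highest in myeloid cells.

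The genes of the cluster had different sources. Cxcl5 was a fibroblast transcript, with 93.6% of its WT/WT UMIs and 93.9% of its Δ/Δ UMIs in fibroblasts. Cxcl2 was a myeloid transcript, with 92.4% and 85.2% of its UMIs in myeloid cells. Cxcl3 was also mostly myeloid, with 82.4% and 66.9%, although at few UMIs. Cxcl1 came from both classes, and the balance differed between the libraries: fibroblasts held 30.8% of its WT/WT UMIs and 62.4% of its Δ/Δ UMIs, and myeloid cells held 61.4% and 26.6%. The neighbouring genes Ppbp, which encodes a platelet ELR chemokine, and Pf4, which encodes platelet factor 4, were nearly confined to myeloid cells among these 2 classes, and Cxcl15 had 0 UMIs in both.

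**Figure D2:**
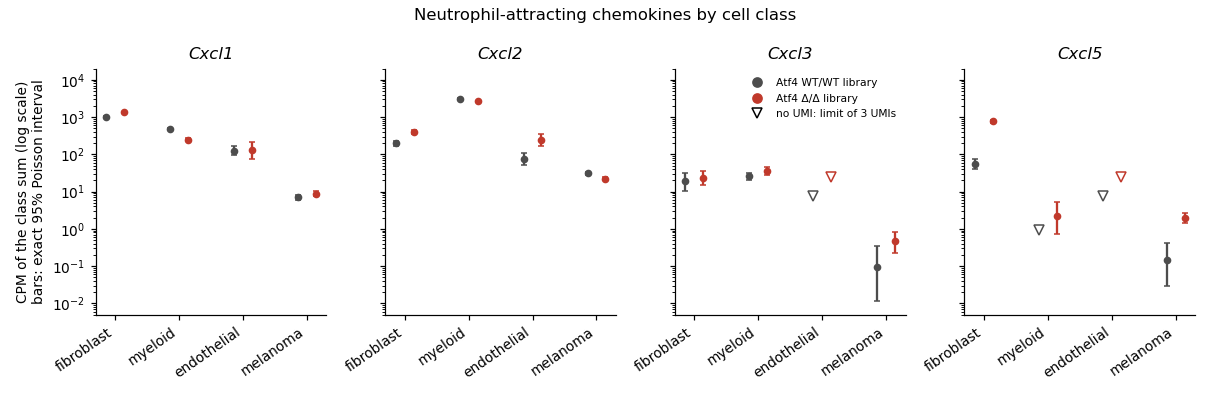
CPM (log axis) of the 4 chemokines in fibroblasts, myeloid, endothelial and melanoma cells of the WT/WT (grey) and Δ/Δ (red) libraries, with exact 95% Poisson intervals as bars and open triangles at the limit that 0 UMIs allow. Cxcl5 is high only in Δ/Δ fibroblasts among these classes, at 768 CPM, and Cxcl2 is highest in myeloid cells, at 3096 and 2641 CPM.

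The central comparison asked how host Atf4 status related to these chemokines in fibroblasts. Cxcl5, which encodes a chemokine made by stromal and epithelial cells, was at 55.9 CPM in WT/WT fibroblasts (40.6 to 75.0, 44 UMIs) and at 768 CPM in Δ/Δ fibroblasts (714 to 825, 749 UMIs). The Δ/Δ level was 13.7 times the WT/WT level, a log2 ratio of 3.78 (3.34 to 4.25), and 1 of 7529 fibroblast genes with at least 20 UMIs had a higher ratio. Of those 7529 genes, 4.86% were at least 2-fold higher in Δ/Δ and 6.14% at least 2-fold lower, with a median log2 ratio of -0.05. Cxcl2 and Cxcl5 were the 2 of 4 members with enough UMIs that passed 2-fold, Cxcl2 only just, since its log2 ratio was 0.98 with doublets removed and 0.88 with a stricter gate. Because the ratio of Cxcl5 was known when the family was chosen, nothing is read from this count.

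Cxcl2, a chemokine better known from macrophages, was at 199 CPM in WT/WT fibroblasts (169 to 233, 157 UMIs) and 400 CPM in Δ/Δ fibroblasts (361 to 441, 390 UMIs), which gave a log2 ratio of 1.0 (0.73 to 1.28). Cxcl1, the most abundant of the 4 in fibroblasts by UMIs, was at 1002 CPM in WT/WT (933 to 1074, 789 UMIs) and 1330 CPM in Δ/Δ (1259 to 1405, 1298 UMIs). Its log2 ratio of 0.41 (0.28 to 0.54) was small, and 1438 of the 7529 genes had a higher one. Cxcl3 rested on 15 and 23 UMIs, or 19.0 and 23.6 CPM, and its log2 ratio of 0.31 (-0.69 to 1.35) left no difference detectable at this depth. No fibroblast had a Cxcr2 UMI, which allows at most 3.81 CPM in WT/WT and 3.07 CPM in Δ/Δ.

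The cells behind these sums were counted after each was thinned to 2000 UMIs, which left out 32 WT/WT and 39 Δ/Δ fibroblasts with fewer. A Cxcl5 UMI was seen in 5.36% of WT/WT (2.48 to 9.93) and 32.2% of Δ/Δ fibroblasts (25.7 to 39.1). Without thinning these shares were 5% and 36.1%, that is 10 of 200 and 86 of 238 cells. In melanoma cells, which gave little Cxcl5, the thinned shares were 0% (0 of 1731 cells) and 0.620%. The few WT/WT cells carried most of that library's Cxcl5, since 5 cells held 81.8% of its UMIs and the highest held 11. In Δ/Δ fibroblasts 5 cells held 26.8%, the highest had 53 UMIs and the median of the positive cells was 5. Leaving out the highest cell of each library gave a log2 ratio of 4.09.

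Cxcl1 was widespread by comparison. After thinning it was seen in 57.1% of WT/WT (49.3 to 64.7) and 66.8% of Δ/Δ fibroblasts (59.8 to 73.3), intervals that overlap. Cxcl2 was seen in 19.0% (13.4 to 25.8) and 30.7% (24.3 to 37.6), which also overlap. In melanoma cells the same shares were 1.44% and 1.29% for Cxcl1 and 3.81% and 3.1% for Cxcl2, at median depths of 11147 and 10532.5 UMIs before thinning. By melanoma markers, free RNA made up 8.94% and 11.5% of fibroblast UMIs. Cells with Cxcl5 mostly had Cxcl1 as well: in a joint thinning of the 4 chemokines, Cxcl1 was in 86.6% of the 67 Cxcl5-positive Δ/Δ fibroblasts and in 61.4% of the 132 others. Cxcl2 was in 47.8% and 24.2% of the same cells. Among WT/WT fibroblasts only 8 had Cxcl5 after this thinning, and 7 of these had Cxcl1.

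The Cxcl5 difference was not even across the Δ/Δ fibroblasts when these were split by sex-linked transcripts. Those in which Xist but no Y-linked transcript was seen had 66.7 CPM of Cxcl5 in WT/WT (159 cells, 44 UMIs) and 155 CPM in Δ/Δ (61 cells, 33 UMIs). Within these cells the log2 ratio was 1.22 (0.52 to 1.90), against 3.78 over all fibroblasts. The 33 Δ/Δ UMIs sat in 8 cells, with 15 in 1 cell and 8 in another. Without the highest cell of each library the levels were 50.6 and 86.5 CPM, on 33 and 18 UMIs, and the interval of the log2 ratio of 0.77 (-0.14 to 1.65) held 0. Without the 2 highest cells of each library they were 40.1 and 49.5 CPM. Δ/Δ fibroblasts in which a Y-linked transcript but no Xist was seen had 1107 CPM (51 cells, 307 UMIs). Cxcl5 was detected in 13.1% of the former Δ/Δ cells (5.84 to 24.2) and in 52.9% of the latter (38.5 to 67.1), at median depths of 3126 and 4836 UMIs. The log2 ratio of Y-linked over Xist cells within the Δ/Δ library was 2.83 (2.31 to 3.40).

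Cxcl1 and Cxcl2 did not show this split by their intervals, and Cxcl3 had too few UMIs (2 with Xist, 6 with Y-linked transcripts). Between the same Δ/Δ cells Cxcl1 was at 1300 CPM with Xist and 1198 CPM with Y-linked transcripts, and Cxcl2 was at 320 and 361 CPM, with intervals of both ratios that hold 0. Against WT/WT fibroblasts with Xist, the log2 ratio in Δ/Δ fibroblasts with Xist was 0.35 (0.14 to 0.55) for Cxcl1 and 0.69 (0.24 to 1.12) for Cxcl2. The Cxcl2 ratio rested on 131 WT/WT UMIs, at most 12 per cell, and on 68 Δ/Δ UMIs in 19 cells. Of these 68 UMIs, 19 were in 1 cell, and the ratio without the highest cells was not computed. The Δ/Δ fibroblasts with neither mark, 126 cells, held 409 of the 749 Cxcl5 UMIs, at 841 CPM, while the 41 WT/WT fibroblasts with neither mark held 0. The Δ/Δ library pooled 2 tumours, so the sex of the host and the tumour of origin cannot be told apart, and no WT/WT cell with Y-linked transcripts was there to compare.

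**Figure D3:**
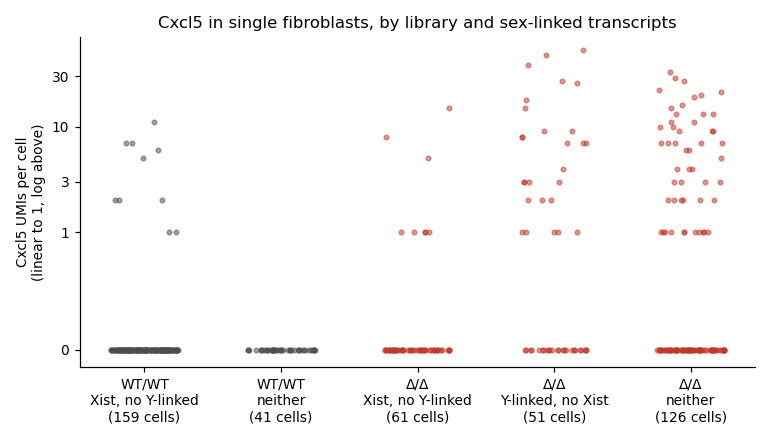
Cxcl5 UMIs in each fibroblast (vertical axis, linear to 1 and logarithmic above), split by library and by the sex-linked transcripts seen in the cell, with 1 point per cell. Of the 61 Δ/Δ cells with Xist 8 had Cxcl5, against 27 of the 51 with Y-linked transcripts, and the 10 positive WT/WT cells all carried Xist.

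Cxcl5 lay between 711 and 934 CPM in 4 of 5 Δ/Δ fibroblast subtypes, and over all cells each of these 4 was above its WT/WT level. Subtypes were assigned by markers of adventitial-type (Pi16, Clec3b), activated (Lrrc15, Il1rl1), hypoxic (Pgf, Slc2a1), cycling and vascular (Rgs5) fibroblasts. In adventitial-type cells Cxcl5 was at 61.5 CPM in WT/WT (7 UMIs, 39 cells) and 881 CPM in Δ/Δ (208 UMIs, 67 cells). It was at 73.9 and 712 CPM in activated cells, with 22 and 147 UMIs in 80 and 50 cells. In hypoxic cells it was at 94.1 and 934 CPM, with 7 and 236 UMIs in 17 and 62 cells. Cycling cells had 31.7 and 711 CPM, with 8 and 158 UMIs in 42 and 36 cells. The log2 ratios ran from 3.27 (2.62 to 3.99) in activated to 4.49 (3.48 to 5.73) in cycling cells, and all 4 intervals overlap.

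Vascular fibroblasts were the exception among the named subtypes. In 8 WT/WT and 12 Δ/Δ cells of this kind Cxcl5 had 0 UMIs, which allows up to 102 and 66.6 CPM, the latter below the level in each of the other 4 Δ/Δ subtypes. These cells did hold Cxcl1, at 307 CPM in WT/WT (9 UMIs) and 1221 CPM in Δ/Δ (55 UMIs). The 14 WT/WT and 11 Δ/Δ fibroblasts given no subtype, with medians of 1139 and 855 UMIs, also had 0 Cxcl5 UMIs. Their Cxcl1 was at 1622 and 1580 CPM, on 32 and 21 UMIs.

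Within cells in which Xist alone was seen, the subtypes did not all show the gap. Cxcl5 in adventitial-type cells with Xist was at 69.2 CPM in WT/WT (7 UMIs, 32 cells) and 15.2 CPM in Δ/Δ (1 UMI, 23 cells). In activated cells with Xist it was at 90.0 and 58.8 CPM, on 22 and 3 UMIs in 63 and 13 cells, with a log2 ratio of -0.61 (-3.00 to 1.12). In these subtypes the Δ/Δ level was thus the lower one, on too few UMIs to tell a difference. Hypoxic cells with Xist had 110 and 477 CPM, on 7 and 24 UMIs in 15 and 14 cells (log2 ratio 2.12, 0.86 to 3.58), and cycling cells with Xist had 38.2 and 157 CPM, on 8 and 5 UMIs in 33 and 5 cells (2.04, 0.08 to 3.83). These ratios rested on very few cells. All 7 WT/WT UMIs of the hypoxic cells were in 1 cell, and of the 24 Δ/Δ UMIs 15 were in 1 cell and 8 in another. All 5 Δ/Δ UMIs of the cycling cells were in 1 cell. The intervals do not cover this uneven spread over cells. The Δ/Δ cells with Y-linked transcripts had 1784 CPM in adventitial-type, 762 CPM in activated, 1282 CPM in hypoxic and 710.0 CPM in cycling cells, on 146, 44, 72 and 45 UMIs.

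**Figure D4:**
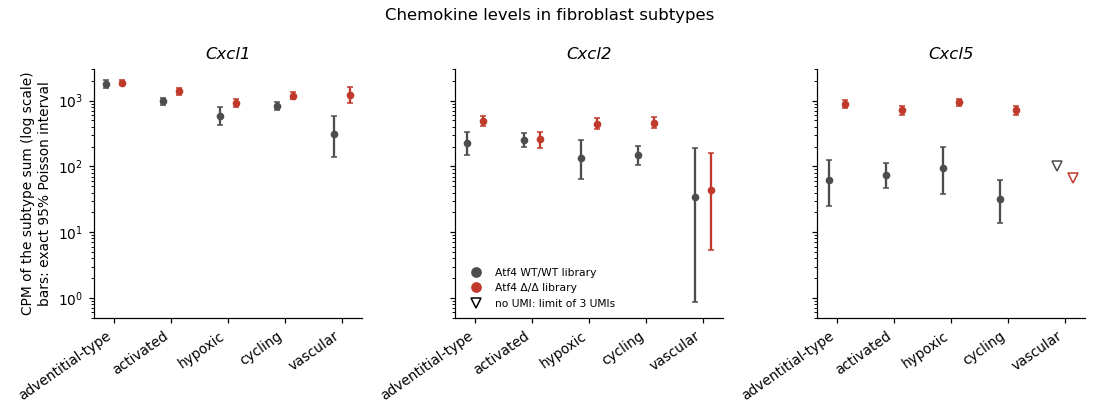
CPM (log axis) of Cxcl1, Cxcl2 and Cxcl5 in 5 fibroblast subtypes of the WT/WT (grey) and Δ/Δ (red) libraries, with exact 95% Poisson intervals and open triangles for 0 UMIs. Cxcl5 in Δ/Δ lies between 711 and 934 CPM in 4 subtypes and is at 0 UMIs in vascular cells.

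Cxcl1 and Cxcl2 varied more by subtype, in values that were not split by sex-linked transcripts. Cxcl1 was highest in adventitial-type cells of both libraries, at 1782 and 1876 CPM, giving a log2 ratio of 0.07 (-0.17 to 0.32). In activated, hypoxic and cycling cells its WT/WT levels were lower, at 974, 592 and 835 CPM, and the log2 ratios were 0.50 (0.26 to 0.74), 0.63 (0.16 to 1.13) and 0.51 (0.24 to 0.78). Cxcl2 did not differ detectably in activated cells, at 252 and 257 CPM (log2 ratio 0.03, -0.51 to 0.55). It was higher in Δ/Δ in adventitial-type, hypoxic and cycling cells, with log2 ratios of 1.11 (0.48 to 1.78), 1.73 (0.80 to 2.83) and 1.62 (1.07 to 2.20). Hypoxic cells made up 8.50% of WT/WT and 26.1% of Δ/Δ fibroblasts, and activated cells 40.0% and 21.0%. Of 413 fibroblasts given a subtype, 27 lay near the border with another.

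RNA from other classes was also seen in fibroblasts. All 11 myeloid markers were seen there, with a sum over all fibroblasts of 373 CPM in WT/WT and 109 CPM in Δ/Δ. The part of myeloid RNA in the Cxcl2 values was not tested. With free RNA subtracted, Cxcl2 had a log2 ratio of 1.20 and Cxcl5 of 3.77. Myeloid cells, the richest in Cxcl2, had 0 Cxcl5 UMIs in WT/WT, which allows up to 0.911 CPM, and 5 in Δ/Δ, or 2.21 CPM. Of 8 immediate early genes, which rise when tissue is dissociated, 4 were at least 2-fold lower in Δ/Δ fibroblasts, with a median log2 ratio of -1.05. Their part in the chemokine values was not tested.

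In myeloid cells the ratios of Cxcl1 and Cxcl2 had the opposite sign. Cxcl1 was at 477 CPM in WT/WT (454 to 502, 1572 UMIs) and 245 CPM in Δ/Δ (225 to 267, 554 UMIs), a log2 ratio of -0.96 (-1.10 to -0.82). Cxcl2 was at 3096 CPM (3036 to 3156, 10192 UMIs) and 2641 CPM (2575 to 2709, 5964 UMIs), a log2 ratio of -0.23 (-0.28 to -0.18). Cxcl3 was at 25.5 CPM (84 UMIs) and 35.9 CPM (81 UMIs), with a log2 ratio of 0.49 (0.03 to 0.95). None of these 3 passed 2-fold in either direction, against 2.57% of 9689 myeloid genes that were at least 2-fold higher in Δ/Δ and 3.26% at least 2-fold lower, with a median log2 ratio of -0.02. For Cxcl1, 336 of the 9689 genes had a lower ratio.

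The myeloid Cxcl1 difference was also seen within cells of 1 sex. In myeloid cells with Xist alone, Cxcl1 was at 463 CPM in WT/WT and 262 CPM in Δ/Δ, and in Δ/Δ cells with Y-linked transcripts alone it was at 257 CPM. Cxcl2 was at 2938, 2299 and 2183 CPM in the same 3 sets of cells. Thinned to 2000 UMIs, Cxcl1 was seen in 34.5% of WT/WT (30.8 to 38.3) and 20.1% of Δ/Δ myeloid cells (16.5 to 24.2), and Cxcl2 in 71.0% (67.3 to 74.5) and 58.4% (53.7 to 63.0). That thinning left out 882 and 629 shallower cells, and the unthinned shares were 26.1% and 17.9% for Cxcl1 and 61.2% and 58.9% for Cxcl2. For Cxcl3 the thinned shares were 2.35% and 0.895%, on 15 and 4 cells. Its unthinned shares were 2.17% and 3.62%, which go in the opposite direction, and 5 cells held 46.4% of its WT/WT UMIs. Fibroblast markers summed to 274 CPM in WT/WT and 131 CPM in Δ/Δ myeloid cells, all 10 of them seen in both, and their part in the Cxcl1 values was not tested.

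By myeloid state, Cxcl2 was highest in the inflammatory cells, which were set apart by Il1b, Tnf, Nlrp3 and other genes of inflammatory activation. There it was at 11351 CPM in WT/WT (2705 UMIs in 153 cells) and 9253 CPM in Δ/Δ (1531 UMIs in 117 cells). Inflammatory cells also had the highest Cxcl1 of all states, at 1838 and 719 CPM (log2 ratio -1.35, -1.66 to -1.06). Cxcl3 was highest in the same cells, at 134 and 193 CPM, and in the Arg1 hypoxic cells, at 117 and 114 CPM, and it had 11 UMIs or fewer per library in each other state.

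Cxcl1 was lower in Δ/Δ in 6 of 8 states with an interval below 0. Beside the inflammatory cells these were interferon (log2 ratio -1.78), Arg1 hypoxic (-1.23), resident (-1.20), cycling (-0.90) and C1q-high cells (-0.74). In monocytes the ratio was -0.61 (-1.42 to 0.15), on 56 and 20 UMIs, and in MHC class II cells it was 0.08 (-0.42 to 0.56). Cxcl2 was also lower in 6 of the 8 states by interval, or in 5 when at least 3 markers were asked for, as C1q-high cells then had -0.09 (-0.20 to 0.03), with the lowest ratio in resident cells, at 2549 CPM in WT/WT and 1468 CPM in Δ/Δ (log2 ratio -0.80, -0.93 to -0.66), and in Arg1 hypoxic cells, with -0.59 (-0.73 to -0.44). In monocytes it did not differ detectably, at 2273 and 2246 CPM.

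MHC class II cells went the other way for Cxcl2, at 2166 CPM in WT/WT (1322 UMIs in 348 cells) and 4029 CPM in Δ/Δ (928 UMIs in 160 cells), a log2 ratio of 0.90 (0.77 to 1.02). Cxcl2 was detected in 163 of these WT/WT cells and 86 of these Δ/Δ cells, with at most 78 and 52 UMIs per cell. Cxcl3 had 4 and 11 UMIs in the same cells. The make-up of the myeloid class differed between the libraries, with resident cells at 7.96% and 20.4% and MHC class II cells at 22.9% and 14.9%. With each state given the same weight in both libraries, a choice made after seeing the data, the myeloid log2 ratio was -0.98 for Cxcl1 and -0.19 for Cxcl2. Of 2572 cells given a state, 251 lay near a border.

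**Figure D5:**
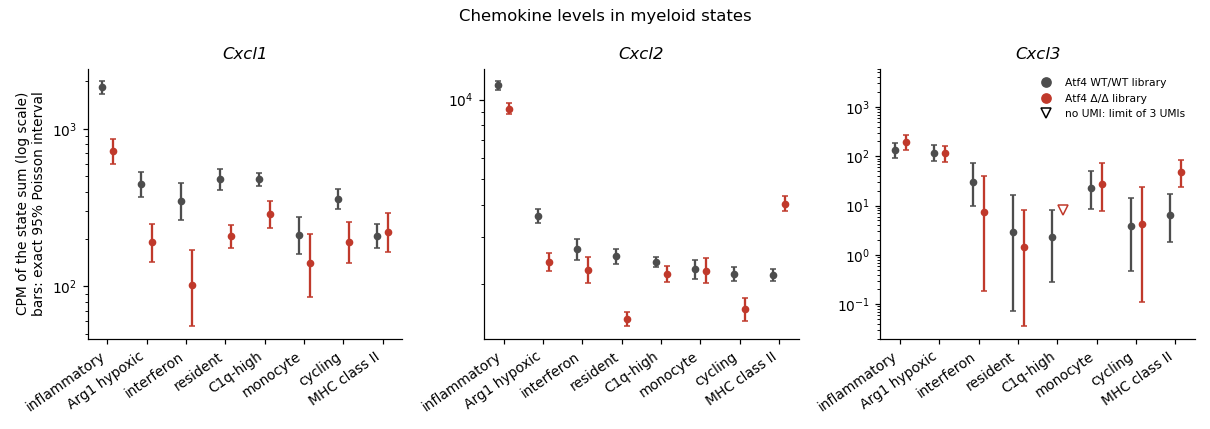
CPM (log axis) of Cxcl1, Cxcl2 and Cxcl3 in 8 myeloid states of the WT/WT (grey) and Δ/Δ (red) libraries, ordered by WT/WT Cxcl2, with exact 95% Poisson intervals and an open triangle for 0 UMIs. Inflammatory cells are highest for Cxcl1 and Cxcl2 in both libraries, and MHC class II cells are the state in which Δ/Δ Cxcl2 lies above WT/WT.

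Other classes added little. Endothelial cells had Cxcl1 at 126 CPM in WT/WT (50 UMIs) and 133 CPM in Δ/Δ (16 UMIs). Their Cxcl2 was at 75.7 CPM and 249 CPM, on 30 UMIs each, but 23 of the 30 Δ/Δ UMIs were in 1 cell. In melanoma cells Cxcl5 was at 0.261% of the fibroblast level in WT/WT and 0.258% in Δ/Δ, close to the 0.277% and 0.361% of the collagen gene Col1a1. Melanoma Cxcl2 was at 0.991% and 0.842% of the myeloid level, where the myeloid genes Lyz2, Tyrobp and C1qa were at 0.863%, 0.976% and 0.501% in WT/WT and at 0.482%, 0.558% and 0.443% in Δ/Δ. Melanoma Cxcl1 was at 7.0 and 8.85 CPM, or 1.47% and 3.61% of the myeloid level and 0.699% and 0.666% of the fibroblast level. The Cxcl2 shares were above those of Lyz2, Tyrobp and C1qa in the same library. Each Cxcl1 share sets all melanoma Cxcl1 against only 1 class, although fibroblasts and myeloid cells both held this transcript. The Cxcl1 shares therefore cannot be set against those of marker genes that come from 1 class. The WT/WT share of Cxcl2 was close to that of Tyrobp. The part of free RNA in the melanoma values was not tested.

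Cxcr2 was nearly unseen in these tumours. Among kept cells it had 8 UMIs in 8 cells, 2 WT/WT and 3 Δ/Δ cells of the melanoma class and 1 WT/WT and 2 Δ/Δ cells of the myeloid class. Neutrophils, which carry this receptor, were also scarce. The 14 neutrophil markers gave 0 WT/WT cells and 8 Δ/Δ cells, with a median of 561.5 UMIs. These 8 cells had 305 UMIs of S100a8, 329 of S100a9 and 61 of Retnlg, but only 2 of Ly6g and 1 of Csf3r, and 0 of Cxcr2. The markers Mmp8, Mmp9, Camp and Ltf were also at 0 UMIs there. Cxcl2 had 76 UMIs in these cells, or 12244 CPM (9647 to 15326), and Cxcl3 had 3. Neutrophils hold little RNA and the deposited barcodes have at least 500 UMIs, so the number of neutrophils is not measured here. The neutrophil markers summed to 74.1 CPM in WT/WT and 256 CPM in Δ/Δ myeloid cells, with 10 and 11 of 14 seen and with Ly6g and Camp at 0 in both. The markers did not all go in this direction. Over all kept cells, S100a8 had 87 and 645 UMIs, S100a9 100 and 644, and Retnlg 1 and 82. Il1r2 had 128 and 86, Hdc 45 and 28, Csf3r 45 and 39, and Mmp8 44 and 41.

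Other ELR chemokines and receptors were rare. For these and for the gene lists that follow, ratios are over whole classes, in which host sex and genotype cannot be told apart. Ppbp had 30 and 61 UMIs in myeloid cells, 9.11 and 27.0 CPM (log2 ratio 1.57, 0.91 to 2.25). Cxcl15 and the second neutrophil chemokine receptor gene Cxcr1 had 0 UMIs in fibroblasts and myeloid cells. The atypical receptor gene Ackr1 had 6 and 8 UMIs in fibroblasts.

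The cytokines that induce ELR chemokines did not share one direction. Il1b, the classical inducer, was a myeloid transcript at 955 and 931 CPM (log2 ratio -0.04, -0.12 to 0.04), while Tnf was at 199 and 251 CPM, with 0.34 (0.17 to 0.50). Osm was at 79.3 and 66.9 CPM, and Il1a at 26.4 and 28.3 CPM. Of 12 inducers listed, 6 had at least 20 UMIs in myeloid cells, 0 passed 2-fold, and their median log2 ratio was 0.03. In fibroblasts 3 had as many, and 2 of them were at least 2-fold higher in Δ/Δ. Il33, an alarmin of the interleukin-1 family, was at 169 and 888 CPM (log2 ratio 2.39, 2.13 to 2.67), and Lif at 12.7 and 36.9 CPM, with 1.54 (0.50 to 2.72). Il6 was at 109 and 125 CPM, with 0.20 (-0.21 to 0.61). Csf3, the growth factor of neutrophils, had 0 UMIs in WT/WT and 16 in Δ/Δ fibroblasts. Il17a and Il17f had 0 UMIs in both classes.

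Receptors and signal proteins upstream of these chemokines showed no 2-fold difference in either class. In fibroblasts 0 of 12 with enough UMIs passed 2-fold, and the median log2 ratio was -0.13. The interleukin-1 receptor gene Il1r1 was at 138 and 126 CPM, Tnfrsf1a at 159 and 145 CPM, Il6st at 147 and 127 CPM and Osmr at 123 and 120 CPM. In myeloid cells 0 of 14 passed, with a median of 0.10. Tlr2 was at 142 and 154 CPM, Tnfrsf1a at 111 and 143 CPM, Tnfrsf1b at 92.6 and 98.8 CPM and Ikbkb at 71.4 and 76.6 CPM.

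Among 13 NF-kB and feedback genes with enough UMIs in fibroblasts, 1 was at least 2-fold higher in Δ/Δ and 0 lower, with a median log2 ratio of 0.11. That gene was Zc3h12a, at 16.5 and 53.3 CPM (1.69, 0.79 to 2.69). Nfkb1, which encodes an NF-kB subunit, was at 282 and 548 CPM (0.96, 0.73 to 1.19), and the inhibitor gene Nfkbia was at 396 and 530 CPM (0.42, 0.21 to 0.63). Nfkbiz was at 155 and 166 CPM (0.10, -0.25 to 0.45). Zfp36, the mRNA decay factor, was at 203 and 126 CPM (-0.69, -1.04 to -0.34). In myeloid cells 0 of 15 were at least 2-fold higher and 1 lower, the interleukin-1 decoy receptor gene Il1r2 at 22.2 and 11.1 CPM (-1.0). Nfkbia was at 858 and 922 CPM there, Zfp36 at 368 and 260 CPM, Il1rn at 311 and 365 CPM and Nfkb1 at 186 and 164 CPM.

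Inflammatory genes often induced with these chemokines were divided. In fibroblasts 4 of 13 were at least 2-fold higher in Δ/Δ and 1 lower, and the median log2 ratio was -0.02. Serpinb2, an inhibitor of plasminogen activators, was at 146 and 1346 CPM (log2 ratio 3.20, 2.93 to 3.49). The growth factor gene Ereg followed with 3.26 (2.15 to 4.62) on 7 and 83 UMIs, Lcn2 with 2.62 (1.27 to 4.32) on 5 and 38, and the acute-phase gene Saa3 with 1.32 (1.14 to 1.5). Cxcl10, an interferon-induced chemokine, was lower, with -1.0 (-1.62 to -0.40). The abundant monocyte chemokine Ccl2 did not move detectably, at 1978 and 1951 CPM, while Ier3 was at 683 and 860 CPM. In myeloid cells 2 of 11 were higher, Saa3 at 35.5 and 918 CPM (4.69, 4.42 to 4.97) and Lcn2 at 2 and 21 UMIs, with a median of 0.21 for the list. Ccl2 was at 1846 and 1765 CPM there, Ier3 at 1134 and 1373 CPM and Ccl7 at 953 and 1104 CPM.

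CXC chemokines without the ELR motif, which act on other leukocytes, did not follow Cxcl5 as a group. In fibroblasts 1 of 6 was at least 2-fold higher in Δ/Δ, 2 were lower and the median log2 ratio was -0.65. Cxcl13, which attracts B cells, was at 54.6 and 370 CPM (2.76, 2.30 to 3.25), and Cxcl12 was at 315 and 437 CPM (0.47, 0.24 to 0.70). Cxcl9 was at 85.0 and 19.5 CPM (-2.13, -2.94 to -1.37), Cxcl10 was given above, and Cxcl14 was at 510 and 312 CPM (-0.71, -0.93 to -0.49). In myeloid cells 1 of 5 was higher, Cxcl13 with 6 and 252 UMIs, and the median was 0.44. Pf4, which lies in the same cluster as Cxcl5, was at 2190 and 2972 CPM (0.44, 0.39 to 0.49), Cxcl16 at 143 and 163 CPM, and Cxcl10 at 137 and 139 CPM.

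Likeness of profile was measured as Pearson's r of log2(CPM + 10) over 27 profiles of a class, subtype or state in a library, against 10092 genes. Profiles of 1 library share its depth and free RNA, so these values are descriptions. Markers that defined the profiles stayed among the compared genes. Of the genes named below, Ptgs2 was a marker of inflammatory myeloid cells and Vegfa of Arg1 hypoxic myeloid cells and hypoxic fibroblasts. The 5 genes most like Cxcl5 were Steap2, Il33, Rarres2, Serpinb2 and Ptgis, with r of 0.97 to 0.94. Those most like Cxcl2 were Cyba, Efhd2, Slfn2, Arl4c and Rbpj, with r of 0.95 to 0.93. Cxcl1 was most like Anxa1, Nfkb1, Anxa5, S100a6 and Lrp1, with r of 0.86 to 0.82, and Cxcl3 most like Ptgs2, Vegfa, Ltb4r1, Btg1 and Slpi, with r of 0.80 to 0.72. Among the chemokines themselves r was 0.58 for Cxcl1 with Cxcl5 and 0.57 for Cxcl2 with Cxcl3. It was 0.38 for Cxcl1 with Cxcl3, 0.33 for Cxcl1 with Cxcl2, 0.06 for Cxcl3 with Cxcl5 and -0.34 for Cxcl2 with Cxcl5.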

How the data were processed

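Per the file headers and labels, the deposited values are unnormalised UMI counts for each gene in each barcode. The authors made these counts with Cell Ranger 3.1.0 on GRCm38, per the submitters' processing notes, which also name Seurat 3.2.1. The kit is given as version V3 in the labels and as another in the study's methods. There were 31053 genes and 1 library per genotype, and the samples were grouped by the host genotype label. How reads shared by related genes were treated is not given in the sources used here.

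After the study's filters, barcodes counted as kept cells had 200 to 5000 genes and a mitochondrial share of up to 7.5%. A cell took the class with the largest share of its markers detected, with at least 3 detected and no tie. Subtypes and states were taken by the largest mean z-score of markers among those with at least 2 detected, and a cell was called near a border when the best scores differed by less than 0.1. UMIs were summed per class and divided by the class total. Sums have exact Poisson intervals, shares exact Clopper-Pearson intervals, and Δ/Δ over WT/WT ratios exact conditional binomial intervals, all at 95%. They cover counting error only, and no test between genotypes was possible. A sum of 0 was read as up to 3 UMIs. For ratios over all genes, counts under 3 were set to 3. Free RNA was taken as the composition of the whole library, in the share given by melanoma markers. Doublets stayed in; Scrublet called 96 WT/WT and 47 Δ/Δ cells, removed in an alternative. Likeness used genes with at least 200 UMIs and profiles of at least 20 cells.

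The members, markers and lists were chosen with earlier results of these data known, and the immediate early genes were added later still. Genes were named as the members, up to 4 list genes with the most UMIs in each class, list genes past 2-fold when 5 or fewer, and the 5 most alike. Il36a and Cxcl11 were listed but are not analysed here. The ratio step was tested on simulated counts, which checks the calculation only. The counts were drawn from the Poisson model that the intervals assume, without the uneven spread of UMIs over cells. Tools were Python 3.11.15, numpy 2.4.6, scipy 1.17.1, scanpy 1.11.5, R 4.3.3, Seurat 5.3.0 and edgeR 4.0.16, the last for TMM scaling factors only.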

Additional observations from a re-analysis of the deposited data

Results flagged for a closer look

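Cxcl1 and Cxcl2 had Δ/Δ over WT/WT log2 ratios of opposite sign in fibroblasts (0.41 and 1.0) and in myeloid cells (-0.96 and -0.23). With 1 library per genotype the difference between the classes was not tested. Among myeloid states, MHC class II cells had a Cxcl2 log2 ratio of 0.90, while 6 of the other states were below 0 by interval, or 5 with at least 3 markers (C1q-high cells then at -0.09, -0.20 to 0.03), and monocytes were at -0.02, and this difference was not tested either.

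Barcodes left out by the cell filters, most of them over the mitochondrial limit, also held the chemokines. Cxcl1 had 297 UMIs in the WT/WT and 194 in the Δ/Δ barcodes left out, and Cxcl2 had 1300 and 674. Cxcl5 had 63 UMIs in the Δ/Δ barcodes left out, 37 of them in 28 barcodes of the fibroblast class, at 765 CPM, and 3 in WT/WT. Cxcl3 had 4 UMIs in those of Δ/Δ.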

How the results depend on the processing

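No paired analysis was possible because there was 1 library per genotype, and for the same reason no replicate could be left out. Of 86 alternative values of the main results, 73 stayed within the counting interval of the reported value or within 1.5 times the reported count. This count includes a setting without an upper limit on detected genes, which changed none of the main results. It also includes values of Cxcl3, whose wide intervals are easily stayed within. In fibroblasts with Xist as their sole sex-linked transcript, the log2 ratio of Cxcl5 was 1.22. Without the highest cell of each library, a choice made after seeing the data, it was 0.77, with an interval that held 0. In the same fibroblasts the ratio was 0.69 for Cxcl2, with 19 of its 68 Δ/Δ UMIs in 1 cell. For Cxcl3 it was -1.17 (14 and 2 UMIs). Restricted in the same way, the myeloid ratio of Cxcl2 was -0.35, and Cxcr2 had 0 UMIs. With Δ/Δ cells of Y-linked transcripts alone set against the same WT/WT cells, a choice made after seeing the data, Cxcl1 was at 0.23 in fibroblasts, and in myeloid cells Cxcl2 was at -0.43 and Cxcl3 reversed to -0.21 (37 and 5 UMIs). With Seurat clusters in place of marker gates, Cxcl1 was at 0.59 in fibroblasts and -1.18 in myeloid cells, and Cxcl2 at -0.34 in myeloid cells. The interval of myeloid Cxcl3 then held 0, at 0.43 (-0.02 to 0.89). Clusters and gates did not divide the cells alike: 1 cluster named dendritic held 267 WT/WT and 83 Δ/Δ cells, and the dendritic gate 5 and 2. A gate with a margin gave 3.28 for Cxcl5 in fibroblasts. The causes were not tested. Of the ratios by subtype or state, that of Cxcl2 in Arg1 hypoxic cells moved outside its interval with at least 3 markers, to -0.74, and the interval of Cxcl2 in C1q-high cells then held 0, at -0.09. With at least 50 UMIs per gene, the share of genes at least 2-fold higher in Δ/Δ was 3.20% in fibroblasts and 1.41% in myeloid cells. Cxcl3 and Cxcr2 are limited by depth throughout. Without the fibroblast of each library with the most UMIs, Cxcl3 had 10 and 17 UMIs, and with the margin gate its log2 ratio was 1.11.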
